A study of Mus musculus with 135 samples.

Results

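The Toll-like receptor genes taken here were Tlr1, Tlr2, Tlr3, Tlr4, Tlr5, Tlr6, Tlr9 and Tlr12, read through the histone H3K4me3 peaks that lay within 1 kb of one of their annotated transcription starts. These were 23 peaks of the 187253 peaks in 4 cell types, and 7 of the 8 genes had such a peak in at least 1 cell type. The gene group was chosen by the Tlr6 level measured in B6 and D2 hepatocytes, so that the hepatocyte difference between these strains is given below as a description with no test. Germ cells had 6 of these peaks among 19447 promoter peaks, stem cells 5 among 18468, hepatocytes 7 among 12616 and cardiomyocytes 5 among 12920. Tlr9 had none in any cell type, and Tlr7, Tlr8, Tlr11 and Tlr13 had none either.

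Chromatin cut with MNase was immunoprecipitated for H3K4me3 and sequenced in inbred mice in a study built for mapping the mark in a genetic reference population. Germ cells came as a crude isolate from males at 14 days after birth, from 61 BXD recombinant inbred strains (69 libraries), from F1 hybrids of the founders (4 libraries), and from the founders C57BL/6J (B6, 3 libraries) and DBA/2J (D2, 3 libraries). BXD strains are inbred descendants of a cross of B6 with D2, so that each carries at any locus the allele of B6 or that of D2. Female mice aged 8 weeks gave the hepatocytes and the cardiomyocytes, where the recombinant inbred strains BXD75 and BXD87 and both founders had 3 libraries per cell type. Embryonic stem cell lines came from embryos of day 3.5, with 5 lines of BXD75, 5 of BXD87, 3 of B6 and 3 of D2, and the libraries of a line were summed. The labels name no transgene, deletion or treatment in any group, and whether each library stands for another animal is not in the labels. Germ cell libraries held between 1.87 and 31.4 M reads in peaks (M for mega), stem cell libraries 13.8 to 20.2 M, hepatocyte libraries 8.95 to 25.2 M and cardiomyocyte libraries 2.62 to 12.8 M. The lowest cardiomyocyte depths were those of D2, at 2.62 to 4.10 M, against 6.84 to 8.34 M in B6. Levels are given as CPM (read counts per M reads), the reads of a peak relative to the reads in all peaks of its library after TMM scaling, and a level is compared between genes or cell types only per kb of peak or as a percentile among the promoter peaks of that cell type.

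Toll-like receptors are membrane proteins of innate immunity that bind molecules typical of microbes and signal through the adaptors Myd88 and Ticam1 to NF-kappa B and interferon regulatory factors. Tlr1, Tlr2, Tlr4, Tlr5 and Tlr6 act at the cell surface, and Tlr3, Tlr9 and Tlr12 in endosomes. They are best known from macrophages and dendritic cells, but hepatocytes, heart muscle and gut epithelium use some of them too. H3K4me3 marks the nucleosomes around active or poised promoters, so that its reads are a readout of promoter state and not of RNA.

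The labels of the cell types were set against marker genes. All 6 germ cell markers had a promoter peak in germ cells, at a median percentile of 66.0. So did 5 of 6 stem cell markers (38.2) and 5 of 6 fibroblast and stellate cell markers (20.95). Of the Sertoli and Leydig cell markers 4 of 6 had one there (43.8). In hepatocytes 5 of 6 hepatocyte markers had one, at 90.7. In stem cells 3 of 6 stem cell markers had one, at 93.1, with none for Pou5f1, Nanog and Tdgf1 among the peaks used here. Stem cells also had one for 5 of 6 germ cell markers (9.4) and 5 of 6 fibroblast and stellate cell markers (32.0). In germ cells and stem cells the presence of a peak thus did not single out the labelled type. Cardiomyocytes had promoter peaks for 3 of 6 markers of their own type, at a median percentile of 29, with none for Myh6, Tnnt2 and Actc1, while all 6 fibroblast markers had one. Of 12 macrophage and Kupffer cell markers, 2 had a promoter peak in hepatocytes (Cd68, whose peak is shared with Mpdu1, and Ptprc), 1 in cardiomyocytes (Cd68), 2 in stem cells and 0 in germ cells. None of 6 lymphoid markers had one in hepatocytes or cardiomyocytes. In these bulk samples, fewer cells of a type and less of the mark per cell cannot be told apart.

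The promoter sequences below are shown because Tlr6 is the gene on which the strain results turn, because Tlr2 is its partner receptor with a peak in every cell type, and because Tlr9 is the member without a peak. They are RefSeq windows on GRCm38.p6 from 250 bases before to 50 bases after a start, written 5′ to 3′ on the strand of the gene, and capitals mark the CpG dinucleotides. Of the 8 members 7 matched the table, with 9 windows in all, and Tlr4 had no entry.
Tlr6, chr5:64959999-64960298, minus strand: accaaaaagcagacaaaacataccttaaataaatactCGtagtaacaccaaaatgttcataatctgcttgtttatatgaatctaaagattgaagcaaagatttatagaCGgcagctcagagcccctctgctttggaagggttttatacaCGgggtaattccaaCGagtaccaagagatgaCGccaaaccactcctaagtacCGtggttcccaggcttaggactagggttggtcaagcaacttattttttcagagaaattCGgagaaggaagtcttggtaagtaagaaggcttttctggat
Tlr6, start further inside the gene, chr5:64959117-64959416, minus strand: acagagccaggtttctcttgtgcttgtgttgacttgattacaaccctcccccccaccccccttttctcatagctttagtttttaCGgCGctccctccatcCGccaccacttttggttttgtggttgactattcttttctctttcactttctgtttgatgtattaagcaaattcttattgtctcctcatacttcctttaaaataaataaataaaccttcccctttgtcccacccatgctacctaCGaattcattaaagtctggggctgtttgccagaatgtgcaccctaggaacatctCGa
Tlr2, chr3:83841559-83841858, minus strand: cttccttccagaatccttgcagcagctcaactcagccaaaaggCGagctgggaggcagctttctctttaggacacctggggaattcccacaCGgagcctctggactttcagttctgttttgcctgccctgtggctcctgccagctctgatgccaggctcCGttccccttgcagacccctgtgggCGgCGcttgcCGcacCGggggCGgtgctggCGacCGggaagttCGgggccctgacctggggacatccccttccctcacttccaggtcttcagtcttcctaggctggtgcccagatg
Tlr9, chr9:106222348-106222647, plus strand: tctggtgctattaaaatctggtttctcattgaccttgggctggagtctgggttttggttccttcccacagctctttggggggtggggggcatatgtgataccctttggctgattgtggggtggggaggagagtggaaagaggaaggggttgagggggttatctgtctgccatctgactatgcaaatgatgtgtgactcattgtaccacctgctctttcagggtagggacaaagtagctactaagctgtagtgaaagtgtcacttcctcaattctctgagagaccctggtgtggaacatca

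The Tlr6 window around its annotated start held 7 CpG dinucleotides, which is also the median of the 32841 RefSeq windows, and the window further inside the gene held 5. The Tlr2 window held 11 CpG and the Tlr9 window 0. The windows of the other members held 9 and 3 (Tlr1), 10 (Tlr3), 8 (Tlr5) and 6 (Tlr12). Searched on both strands, the TATA box letters TATAAA were found in the first Tlr6 window and in no other member window, against 13.6% of all windows. The GC box letters GGGCGG were found in 3 of the 9 member windows against 35.7% of all windows, CCAAT in 2 against 37.4%, and GAGGAA, the core of a PU box, in 2 against 28.3%. The kappa B letters GGACTTTCC were found in 0 of the 9 against 0.344% of all. These matches describe the letters in the windows and no site.

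Tlr6 (ENSMUSG00000051498.6), which pairs with Tlr2 to bind diacylated lipopeptides, starts at position 64960047 of chromosome 5 on the minus strand of mm10. It was one of the 4 members with a promoter peak in every cell type, beside Tlr2, Tlr3 and Tlr5. Its peak covered its start in all 4 tables, at 64958406 to 64961579 in germ cells, at 64958268 to 64960481 in hepatocytes, at 64958700 to 64960137 in cardiomyocytes and at 64959184 to 64960372 in stem cells. The germ cell peak was listed for both genomes of the peak lists, mm10 and a second one of unstated build, and the other 3 peaks for the second genome alone. The first Tlr6 window lay wholly inside the peak in germ cells, stem cells and hepatocytes, and the window further inside the gene lay wholly inside it in germ cells, hepatocytes and cardiomyocytes.

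The other receptors differed in the width of their peaks between cell types. Tlr5 (ENSMUSG00000079164.8), the flagellin receptor on chromosome 1, had peaks of 6968 bases in hepatocytes and 6722 in cardiomyocytes, against 2300 in germ cells and 1517 in stem cells, and the hepatocyte peak reached 5873 bases into the gene from its start. Tlr4 (ENSMUSG00000039005.13), the lipopolysaccharide receptor on chromosome 4, had a peak of 4849 bases in cardiomyocytes, 2223 in hepatocytes and 1834 in germ cells, and none in stem cells. Tlr3 (ENSMUSG00000031639.12), which binds double-stranded RNA, had its widest peak in hepatocytes, 5117 bases against 1835 to 3033 in the other cell types, and shared its peak with Gm45542, a gene with a start within 1 kb of it. Tlr2 (ENSMUSG00000027995.10, chromosome 3) ranged between 2070 bases in germ cells and 3955 in hepatocytes. Peaks were called by the authors in each cell type separately, so that their width also depends on depth, whose part was not tested.

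Tlr12 (ENSMUSG00000062545.4, chromosome 4), a receptor for protozoan profilin in mice, had a peak of 5856 bases around its start in hepatocytes, and in stem cells a peak of 977 bases whose nearest edge lay 919 bases inside the gene. That stem cell peak was just inside the limit of 1 kb, and with a window of 500 bases Tlr12 had no stem cell peak. Tlr1 (ENSMUSG00000044827.10), which pairs with Tlr2 to bind triacylated lipopeptides and neighbours Tlr6, had a peak of 1128 bases in germ cells and of 808 bases in hepatocytes. The peaks just outside the limit lay 2124 bases upstream of Tlr1 and 2334 bases from Tlr12 in germ cells, 2677 bases upstream of Tlr6 in hepatocytes, and 2261 to 2691 bases downstream of the Tlr9 start in germ cells, stem cells and cardiomyocytes. Tlr9 (ENSMUSG00000045322.10, chromosome 9), which binds unmethylated CpG DNA, had its nearest hepatocyte peak 9911 bases away.

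These outer peaks carried reads of their own. The one in Tlr9 had 20.1, 19.6 and 19.4 CPM in BXD75 and 14.5, 14.8 and 17.9 CPM in BXD87 cardiomyocytes, against 23.7, 29.9 and 24.3 CPM in B6 and 32.6, 31.3 and 26.5 CPM in D2. In germ cells the same gene's peak had 12.6, 11.6, 12 and 9.16 CPM in F1, against 7.96, 15.2 and 9.73 CPM in B6 and 9.27, 13.4 and 13.0 CPM in D2, with overlap of all groups. The one in Tlr12 in germ cells had 1.46, 0.584, 1.01 and 1.67 CPM in F1 and 1.04, 1.26 and 0.493 CPM in B6, against 4.01, 3.55 and 3.71 CPM in D2, whose 3 libraries were the highest. That Tlr12 peak was listed for the second genome alone. Of all germ cell peaks listed so, 76.2% were called lower in B6 than in D2 and 0% higher, so that its levels are a description. The one upstream of Tlr6 in hepatocytes had 9.18 to 10.1 CPM in BXD75 and 9.64, 9.09 and 9.13 CPM in BXD87, against 4.13, 5.72 and 4.97 CPM in B6 and 6.02, 5.63 and 6.35 CPM in D2, with both lines above both founders.

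**Figure D1:**
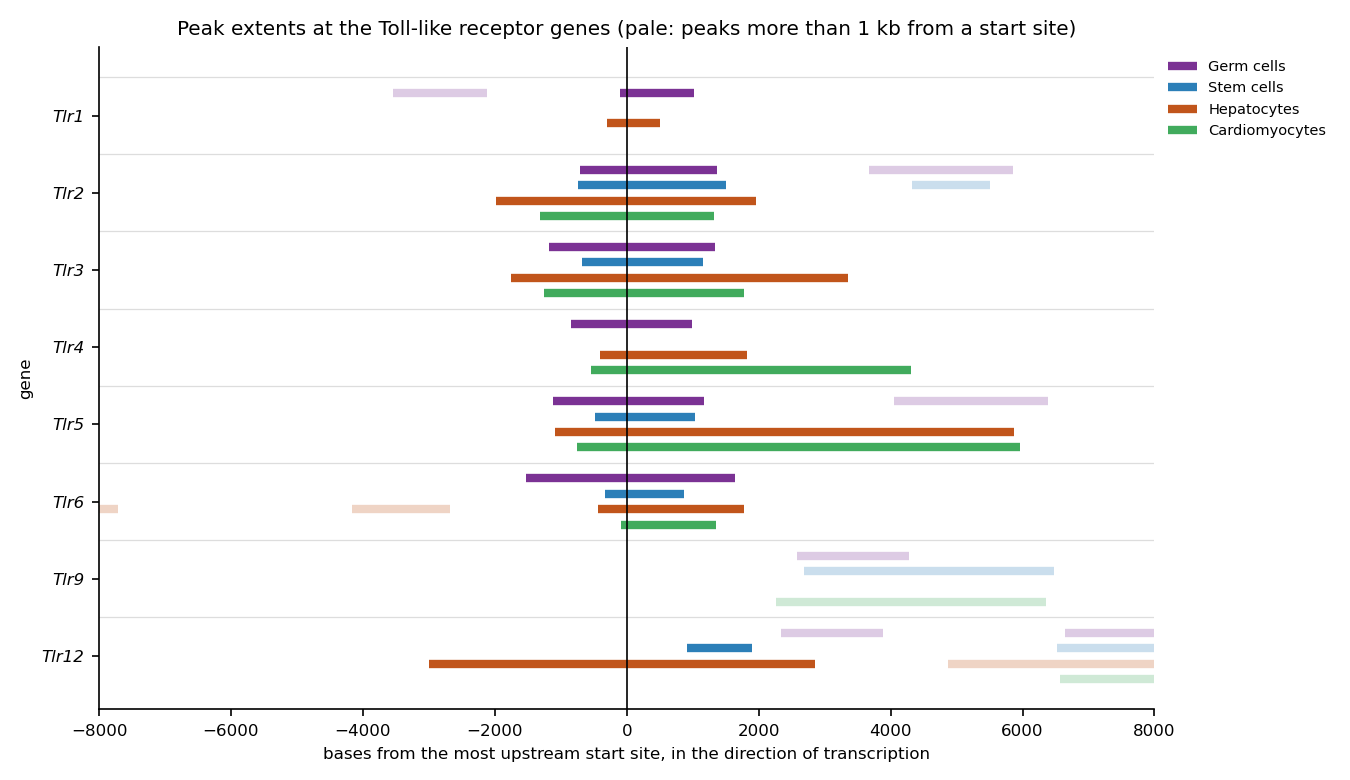
Extent of the H3K4me3 peaks at the Toll-like receptor genes in each cell type, in bases from the annotated transcription start along the gene's direction. Bars mark peaks, pale bars those more than 1 kb from a start, and among the peaks within 1 kb of a start the Tlr5 and Tlr4 bars in cardiomyocytes and the Tlr5 bar in hepatocytes reach furthest into the gene.

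As a percentile among the promoter peaks of a cell type, on the scale of CPM per kb, the receptors had different cell types in front. Tlr5 stood at percentile 91.5 in hepatocytes, 41.7 in germ cells, 19.4 in cardiomyocytes and 19.1 in stem cells. Tlr4 stood at 83.0 in cardiomyocytes, 22.0 in germ cells and 1.21 in hepatocytes. Tlr3 stood at 84.1 in hepatocytes, 58.8 in cardiomyocytes, 54.6 in germ cells and 24.3 in stem cells. Over single libraries the Tlr5 percentile ran between 77.5 and 97.8 in hepatocytes and between 34.6 and 47.0 in germ cells, so that these cell types did not overlap. The Tlr4 percentile ran between 37.7 and 94.7 in cardiomyocytes, 17.3 and 26.1 in germ cells and 0.816 and 16.8 in hepatocytes, again without overlap. The tables were normalised separately and carry different peak sets, and no test was made between cell types. The F1 and founder germ cell libraries used antibody lot 2557645 and those of the other cell types lot 2746331, so that germ cells and the lot cannot be told apart here.

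Tlr2 kept a middle place, at percentile 57.4 in stem cells, 54.2 in cardiomyocytes, 52.2 in germ cells and 42.7 in hepatocytes. Tlr6 stood at 48.0 in cardiomyocytes, 35.7 in germ cells, 20.8 in hepatocytes and 11.1 in stem cells as a mean over strains, but its libraries spread from 1.16 to 92.4 in hepatocytes. Tlr12 and Tlr1 were low where they had a peak, Tlr12 at 11.4 in hepatocytes and 6.68 in stem cells, Tlr1 at 6.17 in germ cells and 1.81 in hepatocytes. Per kb, the order in hepatocytes was Tlr5, Tlr3, Tlr2, Tlr6, Tlr12, Tlr1 and Tlr4, in cardiomyocytes Tlr4, Tlr3, Tlr2, Tlr6 and Tlr5, in germ cells Tlr3, Tlr2, Tlr5, Tlr6, Tlr4 and Tlr1, and in stem cells Tlr2, Tlr3, Tlr5, Tlr6 and Tlr12. In all 4 orders neighbouring receptors overlapped over their libraries, with the exception of Tlr4 and Tlr1 in germ cells.

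**Figure D2:**
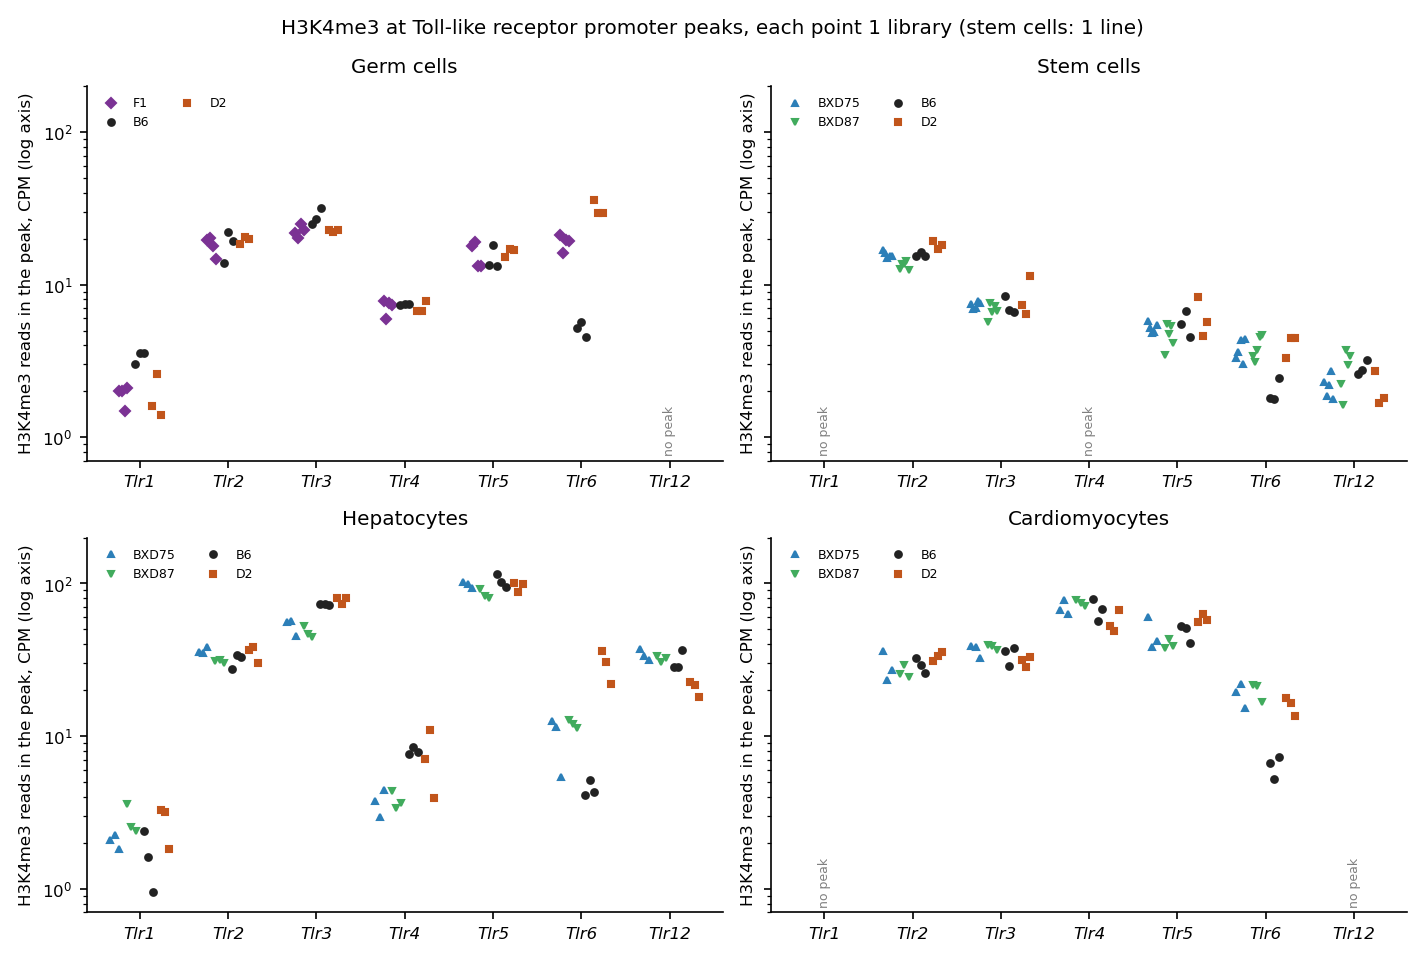
H3K4me3 level of each Toll-like receptor promoter peak in each library or stem cell line, in CPM on a log axis, by cell type and strain. Each point is a library or a line, and Tlr6 is the receptor whose B6 points lie below the D2 points in all 4 cell types.

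The comparison of B6 with D2 asks which promoters differ between the founder strains. Tlr6 was lower in B6 than in D2 in germ cells, where this was tested on a peak listed for both genomes. Its peaks in stem cells, cardiomyocytes and hepatocytes were listed for the second genome alone, so that they entered the tables through 1 side only. Of the promoter peaks listed so, 57.9% were called lower in B6 in stem cells and 55.3% in cardiomyocytes, against 0% and 1.32% called higher, and the Tlr6 differences in these cell types are given as descriptions. In germ cells Tlr6 had 5.22, 5.72 and 4.56 CPM in B6, against 35.6, 29.2 and 29.4 CPM in D2. The 3 B6 libraries held 40, 91 and 37 reads in the peak and the 3 D2 libraries 1083, 791 and 254, and the strains did not overlap. The log2 difference of B6 minus D2 was -2.59 ± 0.18 (SE), with a 95% interval of -2.95 to -2.23, which is a 6.03-fold lower level in B6 (edgeR quasi-likelihood test, Benjamini-Hochberg adjusted p = 3.06e-09, n = 3 each). Of the promoter peaks listed for both genomes in germ cells, 2.89% were called lower in B6 and 2.1% higher. The 6 germ cell markers summed to 267 to 311 CPM in B6 and 352 to 354 CPM in D2, and the 5 of 6 stem cell markers with a promoter peak to 104 to 124 CPM in B6 and 147 to 149 CPM in D2. The 2 of 6 lymphoid markers with a peak summed to 19.7 to 23.3 CPM in B6 and 13.1 to 16.2 CPM in D2. That sum moved with Cd3e, which averaged 20.5 CPM in B6 and 13.4 CPM in D2, while Cd79a averaged 1.39 CPM in B6 and 1.70 CPM in D2. The sums of the 3 of 6 endothelial markers and the 4 of 6 Sertoli and Leydig cell markers with a promoter peak overlapped between the strains. Of the macrophage markers 0 of 12 had a peak. The part of these marker differences in the Tlr6 result was not tested.

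In stem cells Tlr6 had 1.8, 1.77 and 2.44 CPM in the B6 lines, against 3.29, 4.45 and 4.45 CPM in the D2 lines. Every B6 line lay below every D2 line, at levels that were low for a promoter of these cells. The log2 difference was -0.98 ± 0.21 (SE, 95% interval -1.40 to -0.56, n = 3 lines each), a 1.97-fold lower level in B6. In the same lines the 2 of 12 macrophage markers with a promoter peak summed to 120 to 140 CPM in B6 and 156 to 177 CPM in D2. That sum moved with Cd68, which averaged 126 CPM in B6 and 161 CPM in D2. The Cd68 peak, shared with Mpdu1 in hepatocytes, stood at percentile 93.0 among the promoter peaks of stem cells. Spi1 went the other way, with averages of 5.89 CPM in B6 and 4.35 CPM in D2. The 3 of 6 endothelial markers summed to 137 to 149 CPM in B6 and 156 to 167 CPM in D2. Of these, Pecam1 averaged 89.9 CPM in B6 and 118 CPM in D2 and Kdr 22.4 and 24.5 CPM. Tek went the other way, at 30.5 CPM in B6 and 17.3 CPM in D2. The 5 of 6 germ cell markers summed to 32.6 to 36.3 CPM in B6 and 16.3 to 28.9 CPM in D2. None of these sums overlapped between the strains, and the part of these markers in the Tlr6 level was not tested.

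In cardiomyocytes Tlr6 had 6.63, 5.25 and 7.26 CPM in B6, against 17.8, 16.5 and 13.6 CPM in D2, again without overlap. The D2 values rested on 76, 69 and 36 reads and the B6 values on 56, 36 and 60. The log2 difference was -1.33 ± 0.22 (SE, 95% interval -1.75 to -0.90), a 2.51-fold lower level in B6 (n = 3 each). The summed level of the endothelial markers in these cells was 320 to 338 CPM in B6 and 307 to 314 CPM in D2, that of the cardiomyocyte markers 486 to 555 CPM in B6 and 336 to 373 CPM in D2, and that of Cd68 56.2 to 67.3 CPM in B6 and 50.6 to 55.1 CPM in D2. The part of these differences in the Tlr6 result was not tested.

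In hepatocytes Tlr6 had 4.13, 5.18 and 4.31 CPM in B6, against 36.2, 30.8 and 22.1 CPM in D2, a log2 difference of -2.71. The endothelial markers Kdr and Stab2, the 2 of 6 with a promoter peak in hepatocytes, summed to 20.1 to 26.2 CPM in B6 and 39.3 to 90.2 CPM in D2. The sum moved with Stab2, which averaged 10.2 CPM in B6 and 54.5 CPM in D2, while Kdr averaged 12.5 CPM in B6 and 12.3 CPM in D2. The 2 of 6 fibroblast and stellate cell markers with a peak summed to 27.7 to 31.4 CPM in B6 and 18.9 to 20.1 CPM in D2. That sum moved with Pdgfra, which averaged 27.1 CPM in B6 and 16.8 CPM in D2, while Lrat averaged 2.31 CPM in B6 and 2.86 CPM in D2. The part of any of these markers in the Tlr6 level was not tested. Whether the Tlr6 strain difference itself differed in size between cell types was not tested, since the tables were normalised separately.

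**Figure D3:**
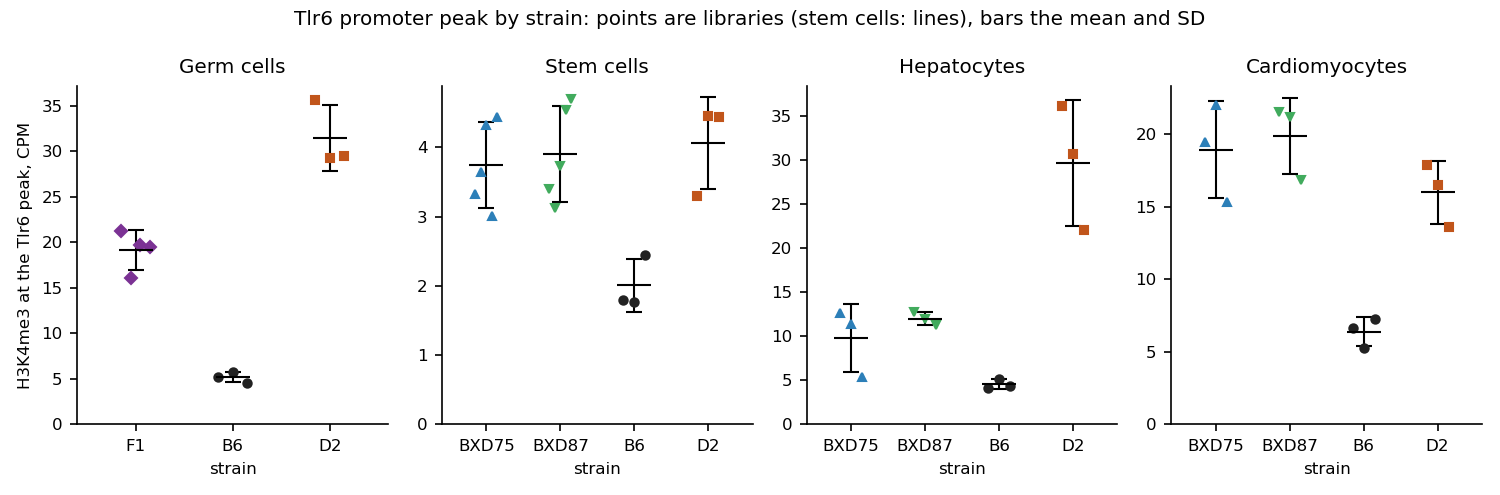
H3K4me3 level of the Tlr6 promoter peak in CPM on a linear axis of its own for each cell type, by strain in each of the 4 cell types. Points are libraries (lines in stem cells), the bars are the mean and 1 SD, and in stem cells and cardiomyocytes BXD75 and BXD87 sit with D2 while in hepatocytes they sit between B6 and D2.

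Tlr6 was the 1 of 6 member peaks called at an adjusted p under 0.05 in germ cells, where 17.3% of all peaks and 7.51% of promoter peaks were called. In stem cells 1 of 5 member peaks was past that threshold, beside 30.6% of all peaks and 17.3% of promoter peaks, and in cardiomyocytes 1 of 5, beside 6.51% and 8.51%. Both were the Tlr6 peak listed for the second genome alone, and nothing is read from these counts. The median log2 difference of B6 minus D2 over the members was 0.00 in germ cells against -0.02 over all peaks, -0.17 against -0.01 in stem cells, -0.09 against 0.01 in hepatocytes and -0.20 against -0.02 in cardiomyocytes. The hepatocyte median includes Tlr6, by whose level there the group was chosen, and is a description.

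Libraries of B6 and D2 did not overlap for 3 of 6 member peaks in germ cells (Tlr1, Tlr3 and Tlr6), where this held for 30% of all peaks and 17.4% of promoter peaks. They did not overlap for 2 of 5 in stem cells (Tlr2 and Tlr6, against 36.2% of all peaks and 23.2% of promoter peaks) and for 2 of 5 in cardiomyocytes (Tlr5 and Tlr6, against 33.4% and 34.8%). In hepatocytes Tlr6 is left out of this count, since the gene group was chosen by its level there. Of the other members with a hepatocyte peak only Tlr12 had libraries without overlap, beside 30.7% of all peaks and 24.2% of promoter peaks.

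Tlr1, next to Tlr6 on chromosome 5, did not share its direction in germ cells. Its germ cell peak was listed for mm10 alone, as was the peak upstream of it, and of such promoter peaks 22.4% were called higher in B6 and 0.765% lower. It had 3.00, 3.58 and 3.57 CPM in B6, against 1.61, 2.59 and 1.39 CPM in D2. The B6 libraries lay above the D2 libraries, but the log2 difference of 0.82 ± 0.31 (SE, 95% interval 0.22 to 1.42) did not pass the test (edgeR quasi-likelihood test, adjusted p = 0.0735). Without D2 replicate 2 it passed, at 1.17 (adjusted p = 0.033). The peak 2124 bases upstream of Tlr1, outside the limit of 1 kb, had 6.26, 3.21 and 7.27 CPM in B6, against 0.46, 0.592 and 0.463 CPM in D2. Its log2 difference was 3.40 ± 0.38 (SE), given as a description. In hepatocytes Tlr1 had 2.39, 1.62 and 0.949 CPM in B6, against 3.28, 3.18 and 1.83 CPM in D2, with overlap. This hepatocyte peak was listed for the second genome alone, unlike the germ cell peak.

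Tlr12 in hepatocytes had 28.3, 28.5 and 36.7 CPM in B6, against 22.5, 21.5 and 18.1 CPM in D2, a log2 difference of 0.60 with every B6 library above every D2 library, given as a description. Its smaller stem cell peak, listed for mm10 alone, had 2.59, 2.77 and 3.2 CPM in B6 lines, against 2.70, 1.68 and 1.81 CPM in D2 lines. These lines overlapped, and the log2 difference of 0.50 ± 0.26 did not pass the test (edgeR quasi-likelihood test, adjusted p = 0.152).

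Tlr2, Tlr3, Tlr4 and Tlr5 were not called between the founders in germ cells, stem cells or cardiomyocytes. Their peaks were listed for both genomes, with the exception of Tlr3 and Tlr5 in cardiomyocytes, which were listed for mm10 alone. Tlr2 had 15.5, 16.4 and 15.3 CPM in B6 stem cell lines, against 19.4, 17.2 and 18.3 CPM in D2 lines, which did not overlap (log2 difference -0.22 ± 0.11 SE, edgeR adjusted p = 0.129). In cardiomyocytes Tlr5 had 52.5, 50.9 and 40.8 CPM in B6, against 55.6, 63.5 and 57.8 CPM in D2, also without overlap (log2 difference -0.30 ± 0.16 SE, edgeR adjusted p = 0.253). Tlr3 in germ cells had 24.8, 26.8 and 31.5 CPM in B6, against 22.8, 22.1 and 22.7 CPM in D2 (log2 difference 0.30 ± 0.15 SE, edgeR adjusted p = 0.203). Each of these 3 differences did not pass the test although its libraries were apart.

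Tlr4, the receptor with its highest level in cardiomyocytes, had 78.6, 56.6 and 68.5 CPM there in B6, against 52.8, 48.9 and 67.3 CPM in D2. The strains overlapped (log2 difference 0.28 ± 0.14 SE, edgeR adjusted p = 0.22). In germ cells Tlr4 had 7.31, 7.48 and 7.51 CPM in B6, against 6.71, 6.73 and 7.76 CPM in D2, and these overlapped as well. Tlr5 in hepatocytes, at its highest level, had 115, 103 and 94.6 CPM in B6, against 101, 88.5 and 99.6 CPM in D2, with overlap.

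**Figure D4:**
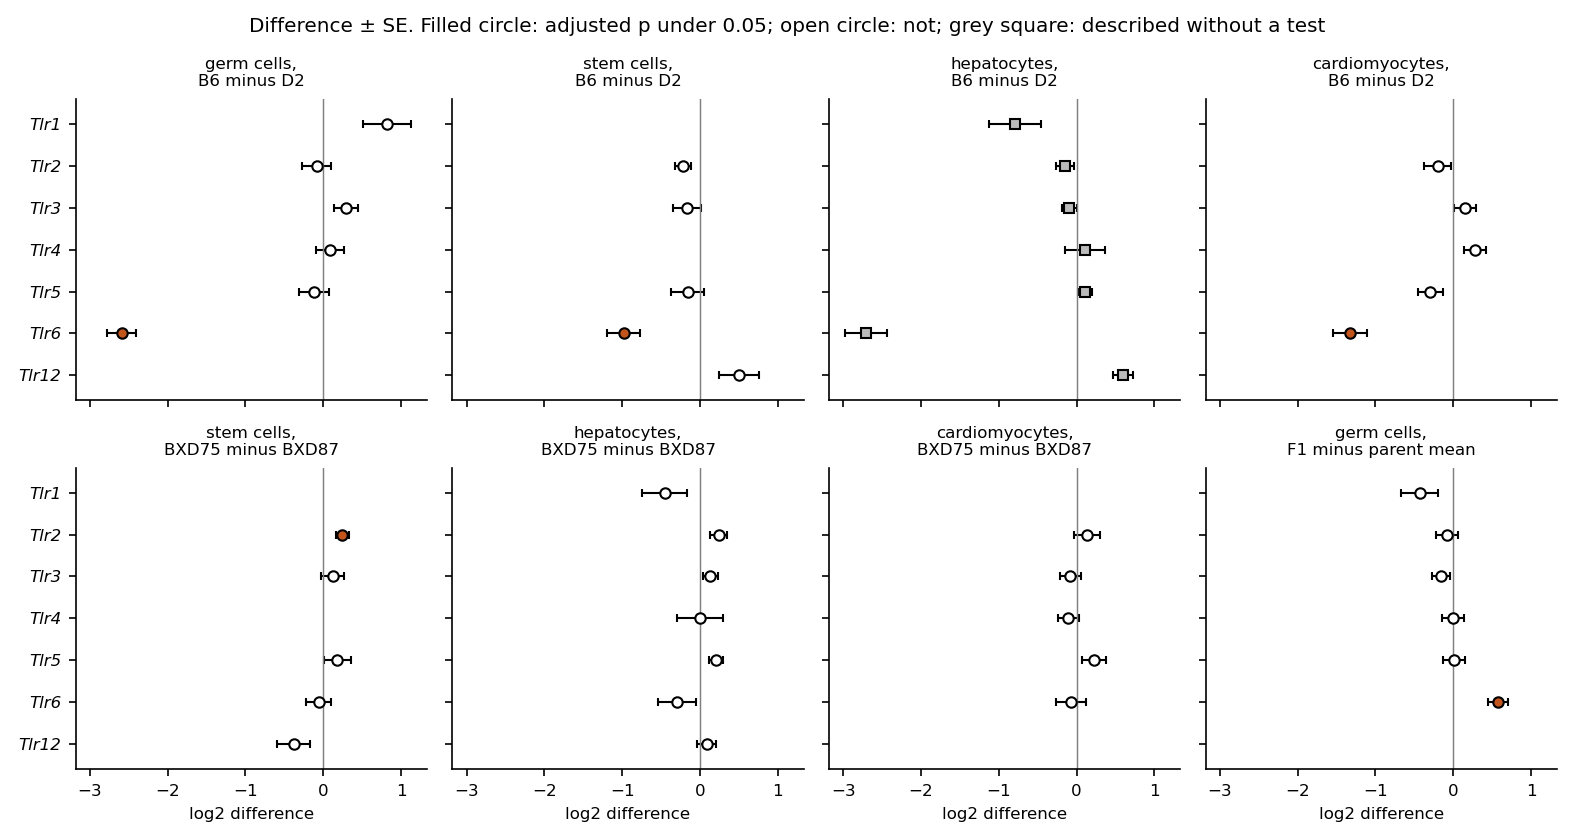
Log2 difference of each Toll-like receptor promoter peak with its SE as a bar, for B6 minus D2, BXD75 minus BXD87 and F1 minus the mean of the parents, by cell type. Filled circles passed the test, open circles did not, and grey squares are the hepatocyte values described without a test; Tlr6 is the filled point at -2.59 in germ cells, and at -0.98 in stem cells and -1.33 in cardiomyocytes, where its peak was listed for the second genome alone.

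The germ cells of the BXD strains show how each receptor varied over a panel in which either founder allele can be inherited at each locus. Over the 61 strains Tlr6 ranged between 3.05 CPM in BXD81 and 40.8 CPM in BXD39, with a median of 27.3 CPM, in a scaling over all germ cell libraries of the panel. The values fell into 22 strains at 3.05 to 9.52 CPM and 39 strains at 24.8 to 40.8 CPM, with no strain mean in between, a gap of 2.6-fold. On the same scale the F1 libraries had 18.0 to 23.3 CPM, the B6 libraries 4.93 to 6.43 CPM and the D2 libraries 32.3 to 39.1 CPM. The lower set of strains thus covered the B6 levels, the upper set covered the D2 levels, and the F1 levels fell in the gap. On the scale of log2(CPM + 0.5) the Tlr6 gap was 1.33. On that scale a gap as wide, with at least 10 strains on each side, was found at 13 of 19445 promoter peaks (0.0669%). Over all 67101 peaks it was found at 161 (0.24%). The alleles of the strains at Tlr6 were not used here.

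Both antibody lots of the panel held both sets. With lot 2557645, 8 strains had 4.28 to 9.52 CPM and 20 strains 24.8 to 40.8 CPM. With lot 2746331, 13 strains had 3.05 to 8.50 CPM and 19 strains 26.7 to 38.3 CPM, and BXD99, measured with both lots, had 5.72 to 6.33 CPM in 3 libraries. The ranges of both sets thus overlapped between the lots. Of 7 strains with more than 1 library, 6 had all libraries on 1 side of the gap, and BXD84 had 19.6 and 30.2 CPM, the first of which lies inside the gap. BXD75 had 33.2 CPM and BXD87 27.0 CPM in the panel, 1 library each, so both were in the upper set.

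The other receptors had no such gap over the 61 strains. Tlr1 ranged between 1.19 and 6.51 CPM (median 3.05), Tlr2 between 15.7 and 32.2 (median 22.9), Tlr3 between 15.9 and 34.4 (median 23.8), Tlr4 between 5.96 and 14.4 (median 9.74) and Tlr5 between 13.2 and 26.4 (median 19.3). The widest gap between neighbouring strains was 1.17-fold for Tlr1, 1.12-fold for Tlr5, 1.10-fold for Tlr4 and 1.08-fold for Tlr2 and Tlr3, each with at most 5 strains below it. The antibody lot moved with some of them, with median levels of 16.9 CPM with lot 2557645 and 20.3 CPM with lot 2746331 for Tlr5, and 2.56 and 3.2 CPM for Tlr1.

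**Figure D5:**
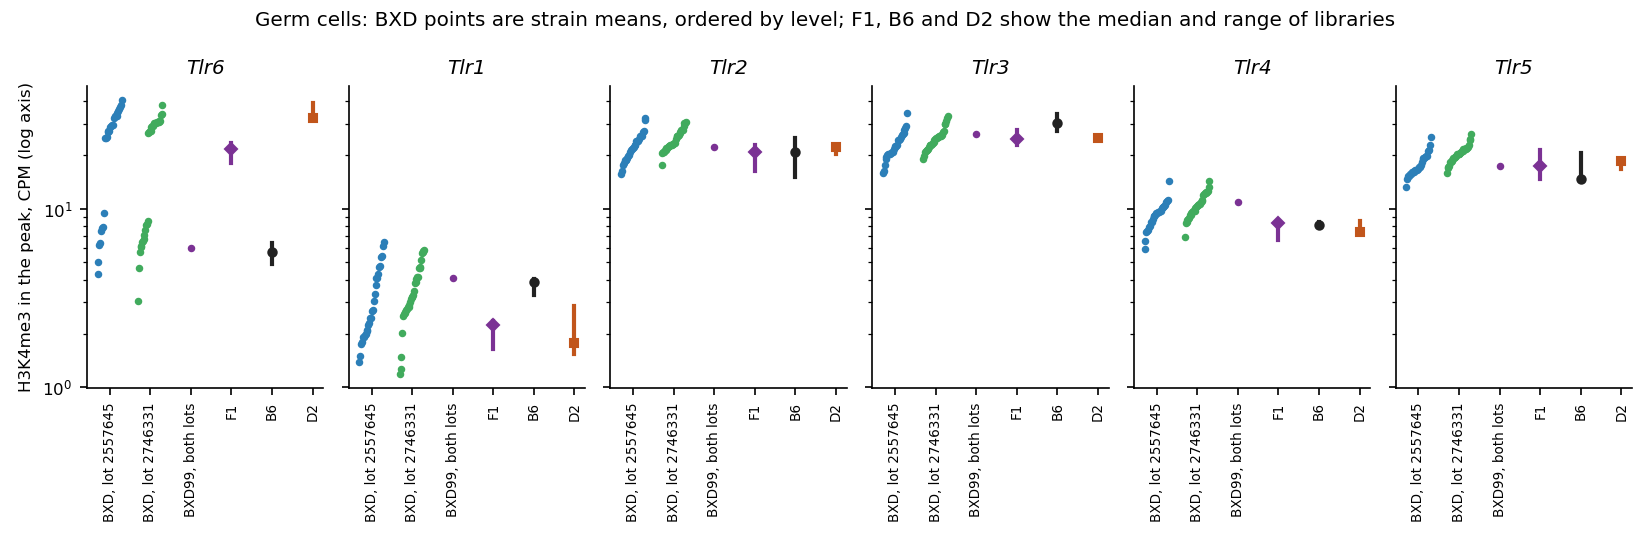
H3K4me3 level of the 6 Toll-like receptor promoter peaks in germ cells over the 61 BXD strains, with the F1, B6 and D2 libraries beside them, in CPM on a log axis. Points are strain means by antibody lot for the BXD panel, symbols with bars are the median and range of libraries for F1, B6 and D2, and Tlr6 is the receptor whose strains form 2 separate sets, 22 at 3.05 to 9.52 CPM and 39 at 24.8 to 40.8 CPM.

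The F1 hybrids carry 1 allele of each founder, and the comparison asks whether they sit at the mean of their parents. Tlr6 had 21.2, 16, 19.7 and 19.4 CPM in F1 germ cells, against 5.22, 5.72 and 4.56 CPM in B6 and 35.6, 29.2 and 29.4 CPM in D2. All 4 F1 libraries lay between the parents. Against the mean of the parents on the log2 scale, Tlr6 was higher in F1 by 0.58 ± 0.13 (SE, 95% interval 0.32 to 0.84; edgeR quasi-likelihood test, adjusted p = 0.0239). On the linear scale the F1 mean was 19.1 CPM and the mean of the parents 18.3 CPM. For parents this far apart, the linear mean lies above the mean of their log2 levels. The log2 test thus cannot tell an F1 level at the linear mean from a higher level, and nothing is read from the call. Tlr6 was 1 of 6 member peaks called, beside 1.59% of all peaks and 0.787% of promoter peaks, and the median log2 difference of the members was -0.04 against 0.02 over all peaks. The call was lost without F1 replicate 1, 3 or 4, D2 replicate 2 or 3, or 1 of the B6 libraries, each left out alone (adjusted p of 0.0648 to 0.129), and with a filter of 50 reads (adjusted p = 0.056). The other 5 receptors had log2 differences between -0.43 (Tlr1) and 0.01 and were not called.

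BXD75 and BXD87 differ at the loci where they inherited different founder alleles. Tlr6 was not called between them in any cell type. It had 3.33, 3.64, 4.32, 3.01 and 4.44 CPM in BXD75 stem cell lines, against 3.40, 3.12, 3.73, 4.54 and 4.70 CPM in BXD87 lines, and in cardiomyocytes 19.4, 22.0 and 15.3 CPM in BXD75, against 21.5, 21.1 and 16.8 CPM in BXD87. The values overlapped, with log2 differences of -0.06 (95% interval -0.39 to 0.26, edgeR adjusted p = 0.843) in stem cells and -0.07 (95% interval -0.44 to 0.31, edgeR adjusted p = 0.849) in cardiomyocytes. In hepatocytes Tlr6 had 12.6, 11.4 and 5.39 CPM in BXD75, against 12.8, 12 and 11.3 CPM in BXD87 (log2 difference -0.29, 95% interval -0.77 to 0.19, edgeR adjusted p = 0.821), and 1 BXD75 library stood apart at the low end.

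Set beside the founders, the BXD75 and BXD87 lines had Tlr6 levels of 3.01 to 4.70 CPM in stem cells, against 3.29 to 4.45 CPM in D2 and 1.77 to 2.44 CPM in B6. In cardiomyocytes they had 15.3 to 22.0 CPM, against 13.6 to 17.8 CPM in D2 and 5.25 to 7.26 CPM in B6. In both cell types their range overlapped that of D2 and lay above that of B6. In hepatocytes they had 5.39 to 12.8 CPM, against 22.1 to 36.2 CPM in D2 and 4.13 to 5.18 CPM in B6, so that they lay below every D2 library and above every B6 library. The endothelial markers summed to 11.7 to 14.6 CPM in BXD75 and 14.4 to 17.2 CPM in BXD87 hepatocytes, against 39.3 to 90.2 CPM in D2 and 20.1 to 26.2 CPM in B6. Stab2 averaged 1.90 CPM in BXD75 and 3.80 CPM in BXD87, against 54.5 CPM in D2 and 10.2 CPM in B6, while Kdr averaged 11.4 to 12.5 CPM in all 4 strains. Differences between the recombinant lines and the founders, and the part of these markers in them, were not tested.

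Tlr2 was the 1 member called between the lines. In stem cells it had 16.7, 16.2, 15, 15.4 and 15.4 CPM in BXD75, against 12.6, 13.7, 13.6, 14.3 and 12.4 CPM in BXD87. Every BXD75 line lay above every BXD87 line, and the log2 difference was 0.24 ± 0.08 (SE, 95% interval 0.08 to 0.41), a 1.18-fold higher level in BXD75 (edgeR quasi-likelihood test, adjusted p = 0.0437, n = 5 lines each). The call was lost when 9 of the lines were left out in turn, with adjusted p between 0.0547 and 0.11. It was 1 of 5 member peaks, beside 21.8% of all peaks and 14.5% of promoter peaks, and 1 of 5 without overlap, beside 18% and 12.3%.

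In hepatocytes 0 of 7 member peaks were called between BXD75 and BXD87 with edgeR and 0 with DESeq2, beside 4.89% of all peaks and 2.33% of promoter peaks called with edgeR. An unadjusted p under 0.05 was reached by 2 of them, beside 6.59% of promoter peaks. Tlr2 had 35.8, 35.1 and 38.6 CPM in BXD75, against 31.1, 31.5 and 30.2 CPM in BXD87 (log2 difference 0.24 ± 0.11 SE, edgeR adjusted p = 0.37). Tlr5 had 103, 99.5 and 93.7 CPM in BXD75, against 92.6, 83.0 and 80.8 CPM in BXD87 (log2 difference 0.21 ± 0.09 SE, edgeR adjusted p = 0.331). Tlr1, Tlr2 and Tlr5, 3 of 7, had no overlap between the lines, beside 17.4% of all peaks and 9.1% of promoter peaks. In cardiomyocytes 0 of 5 member peaks were called with edgeR and 0 with DESeq2, beside 0.529% of all peaks and 0.433% of promoter peaks called with edgeR. Of these 5 peaks 0 had an unadjusted p under 0.05, beside 18.9% of promoter peaks, and 0 were without overlap, beside 17% of all peaks and 16.5% of promoter peaks. The median log2 difference of the members for BXD75 minus BXD87 was 0.12 in stem cells against -0.00 over all peaks, 0.09 against 0.01 in hepatocytes and -0.07 against 0.01 in cardiomyocytes.

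The other receptors overlapped between BXD75 and BXD87 in most places. Tlr4 in cardiomyocytes had 66.5, 77.7 and 63.2 CPM in BXD75, against 78.0, 74.0 and 70.8 CPM in BXD87 (log2 difference -0.10, edgeR adjusted p = 0.654). Tlr5 in cardiomyocytes had 60.2, 38.5 and 41.9 CPM in BXD75, against 37.9, 43.5 and 39.1 CPM in BXD87 (log2 difference 0.22, edgeR adjusted p = 0.405). In both cases a single BXD75 library was the farthest from its own group. Tlr12 in hepatocytes had 37.0, 33.7 and 31.6 CPM in BXD75, against 33.2, 30.6 and 32.5 CPM in BXD87 (log2 difference 0.09, edgeR adjusted p = 0.929). Both lines overlapped the B6 range of 28.3 to 36.7 CPM and lay above the D2 range of 18.1 to 22.5 CPM, a comparison that was not tested.

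In hepatocytes Tlr3 and Tlr4 had lower values in both recombinant lines than in most founder libraries. Tlr3 had 55.7, 57.0 and 45.5 CPM in BXD75 and 52.9, 47.0 and 44.4 CPM in BXD87, against 73.6, 73.8 and 71.8 CPM in B6 and 79.8, 73.4 and 80.6 CPM in D2. Tlr4 had 3.78, 2.96 and 4.44 CPM in BXD75 and 4.34, 3.40 and 3.62 CPM in BXD87, against 7.61, 8.53 and 7.89 CPM in B6 and 7.11, 11 and 3.91 CPM in D2. For Tlr3 every library of the lines lay below every founder library, and for Tlr4 only the lowest D2 library fell into the range of the lines. The leukocyte marker Ptprc averaged 2.18 CPM in BXD75 and 1.90 CPM in BXD87, against 6.48 CPM in B6 and 6.38 CPM in D2. The 2 macrophage markers with a peak, Cd68 and Ptprc, summed to 44.1 to 54.8 CPM in BXD75 and 47.9 to 54.2 CPM in BXD87. Their sums were 61.3 to 77.5 CPM in B6 and 46.4 to 67.2 CPM in D2. The other defining macrophage markers, such as Adgre1, Csf1r and Clec4f, had no promoter peak in hepatocytes. The 5 of 6 hepatocyte markers with a peak summed to 996 to 1266 CPM in BXD75 and 1169 to 1267 CPM in BXD87. In the founders this sum was 1266 to 1499 CPM in B6 and 1165 to 1656 CPM in D2. The 2 of 6 fibroblast and stellate cell markers summed to 32.8 to 47.7 CPM in BXD75 and 28.3 to 41.4 CPM in BXD87. Their founder sums were 27.7 to 31.4 CPM in B6 and 18.9 to 20.1 CPM in D2. The part of any of these markers in the Tlr3 and Tlr4 levels was not tested. A difference of both lines from both founders was not part of the planned comparisons and was not tested.

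The peaks around Tlr6 were used to see how far the founder difference reached. Within 100 kb of its start, 3 of 14 peaks were called between B6 and D2 in germ cells, 7 of 15 in stem cells and 1 of 4 in cardiomyocytes, beside the 17.3%, 30.6% and 6.51% of all peaks given above, with the Tlr6 peak among them each time. The promoter peak of Fam114a1, whose centre lay 9819 bases from the Tlr6 start in germ cells, had 30.1 CPM in B6 and 25.2 CPM in D2 germ cells (log2 difference 0.26, edgeR adjusted p = 0.447). In cardiomyocytes it had 44.5 CPM in B6 and 43.4 CPM in D2 (log2 difference 0.04, edgeR adjusted p = 0.896). Called neighbours lay on both sides of 0. In germ cells they were the peak upstream of Tlr1, listed for mm10 alone, and a peak of log2 difference -2.27 listed for the second genome alone, at 0.788 CPM in B6 and 3.58 CPM in D2. In stem cells the 6 called neighbours had log2 differences of -0.85 to 1.94, of which 5 were higher in B6. The one at 1.94, listed for mm10 alone, had 6.87 CPM in B6 and 1.72 CPM in D2. Those at 0.87 and 1.01 were also listed for mm10 alone, and the one at -0.85 for the second genome alone. The remaining neighbours, at 0.61 and 0.40, were listed for both genomes. The sign of each called neighbour listed for 1 genome alone followed its list, and nothing is read from these signs.

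The promoters whose levels most resembled those of Tlr6 are named by their Pearson correlation over log2 CPM, as a description. Over the 61 BXD strains, with the mean of each antibody lot subtracted, these were Txk (r = 0.64) and 1700126H18Rik (r = 0.59), which lie 7.78 Mb and 1.23 Mb from Tlr6 on chromosome 5, and Commd9 (r = 0.50) on chromosome 2. Over the 16 stem cell lines they were 4930568G15Rik (r = 0.93), Aass (r = 0.92) and Catspere1 (r = 0.89). Over the 12 hepatocyte libraries they were Gm45795 (r = 0.97), Gm28856 (r = 0.96) and Trpm6 (r = 0.95). Over the 12 cardiomyocyte libraries they were the peak shared by Pnp and Gm49342 (r = 0.98) and those shared by Rbm12b2 and Tmem67 and by Slc28a2 and Gm14086 (r = 0.97 each). Libraries of the same strain share their genotype, so that these points are not independent.

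The genes of the Toll-like receptor pathway were taken as a list of 61 genes of receptors, co-receptors, adaptors, kinases, transcription factors, inhibitors and response genes. Of these, 48 had a tested promoter peak in germ cells, 43 in cardiomyocytes and 46 in both hepatocytes and stem cells. The adaptors stood higher than the receptors, with all 3 of them at a median percentile of 79.6 in germ cells against 38.7 for the receptor peaks. The list also holds 4 receptors outside the members, and none of these had a promoter peak.

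In germ cells 1 of 48 list members was called higher in B6 and 0 lower, beside 7.51% of promoter peaks. That gene was Irf7, the interferon regulatory factor downstream of endosomal receptors, at 17.4 ± 6.4 CPM in B6 and 9.21 ± 0.263 CPM in D2 (SD, n = 3 each; log2 difference 0.92 ± 0.22 SE, edgeR adjusted p = 0.00559). In stem cells 6 of 46 were higher in B6 and 1 lower, beside 17.3% of promoter peaks. Irak2, a kinase gene whose peak is shared with 1700015O11Rik and Gm43964, was higher in B6 (log2 difference 0.43 ± 0.12 SE, edgeR adjusted p = 0.00787). The peaks of the chemokine gene Cxcl2 (1.63 ± 0.25 SE) and of Cd180, which encodes a Toll-like receptor homologue (1.03 ± 0.21 SE), were listed for mm10 alone, where 41.8% of promoter peaks were called higher in B6 and 1.08% lower, and their log2 differences are descriptions. Cxcl10, an interferon-induced chemokine gene, was lower in B6 (-1.20 ± 0.18 SE, edgeR adjusted p = 2.61e-05). In cardiomyocytes 1 of 43 was higher and 1 lower with edgeR, beside 8.51% of promoter peaks, and DESeq2 called 6. Ticam1, the adaptor of Tlr3 and Tlr4, had 114 ± 6.62 CPM in B6 and 49.5 ± 2.55 CPM in D2 (SD, n = 3 each; log2 difference 1.21 ± 0.13 SE, edgeR adjusted p = 3.73e-05). The cytokine gene Tnf had 12.7 ± 2.98 CPM in B6 and 31.0 ± 4.74 CPM in D2 (SD, n = 3 each; log2 difference -1.30 ± 0.21 SE, edgeR adjusted p = 0.0022).

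Between the lines, 5 of 46 list members were called higher in BXD75 stem cells and 1 lower, beside 14.5% of promoter peaks. They included the cytokine gene Il6 (log2 difference 0.67 ± 0.13 SE, edgeR adjusted p = 0.000753) and Cd14, the lipopolysaccharide co-receptor (0.31 ± 0.07 SE, edgeR adjusted p = 0.00216). The phosphatase gene Dusp1, a brake on kinase signalling whose peak is shared with AC122252.2, was also higher in BXD75 (0.35 ± 0.06 SE, edgeR adjusted p = 0.000264). Cxcl2 was higher in BXD75 as well (0.88 ± 0.20 SE). Its stem cell peak was listed for mm10 alone, so that this difference is given as a description. In hepatocytes 1 of 46 was higher and 2 were lower, beside 2.33% of promoter peaks. Vcam1, an adhesion molecule gene whose peak is shared with Gm43109, had 60.2 ± 3.56 CPM in BXD75 and 29.3 ± 1.8 CPM in BXD87 (SD, n = 3 each; log2 difference 1.04 ± 0.11 SE, edgeR adjusted p = 4.68e-06). Myd88, the adaptor of most Toll-like receptors, whose peak is shared with Acaa1a, had 104 ± 9.31 CPM in BXD75 and 141 ± 9.47 CPM in BXD87 (log2 difference -0.43 ± 0.09 SE, edgeR adjusted p = 0.00433). Cd36, a scavenger receptor that works with Tlr2 and Tlr6, had 11.6 ± 2.71 CPM in BXD75 and 29.9 ± 9.17 CPM in BXD87 (log2 difference -1.35 ± 0.32 SE, edgeR adjusted p = 0.0245). In cardiomyocytes 0 of 43 were called between the lines with edgeR and 0 with DESeq2, beside 0.433% of promoter peaks called with edgeR. An unadjusted p under 0.05 was reached by 8 of the 43, beside 18.9% of promoter peaks. For F1 minus the parent mean 0 of 48 were called with edgeR and 0 with DESeq2, beside 0.787% of promoter peaks called with edgeR, and an unadjusted p under 0.05 was reached by 1, beside 3.81% of promoter peaks. The median log2 difference over the list lay between -0.08 and 0.11 in all 8 comparisons.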

How the data were processed

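H3K4me3 ChIP-seq libraries were grouped by cell type and strain from the labels. The values are counts: the tables deposited by the authors give whole-number reads per peak, not normalised. The peak lists deposited by the authors hold peak positions for mm10 and for another genome of unstated build. CASAVA 1.8, BWA 0.5.10, MACS 1.4.2 and mm10 were named, per the submitters' processing notes, with no role or order, and neither the rule that assigned reads to peaks nor the strain genome they were counted on is stated; their part in the counts was not tested.

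A promoter peak overlapped the 1000 bases on either side of a GENCODE M21 transcription start. Within each table, peaks were filtered by filterByExpr with a minimum count of 10 and scaled by TMM. They were fitted with edgeR 4.0.16 (limma 3.58.1, R 4.3.3) by the robust quasi-likelihood test. In hepatocytes, cardiomyocytes and stem cells the fit took all strains. In germ cells it took the B6, D2 and F1 libraries alone, without the BXD strains. Benjamini-Hochberg adjustment was made over all peaks tested, with calls at an adjusted p under 0.05. Intervals are 1.96 SE, with SE taken from the test statistic. Stem cell libraries were summed by line. Alternatives were DESeq2 1.42.0 with its size factors, no filter, a filter of 50 reads, only the groups compared, each library left out, unsummed stem cell libraries and a replicate block. Panel levels are given as CPM. The share of peaks with a gap as wide and the correlations over the panel used log2(CPM + 0.5). The scripts were tested on simulated data.

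P-values measure only the spread between these samples, which may be technical. Replicate numbers were not used as pairs. Of 18 pairs of same-numbered libraries, 5 in hepatocytes and 8 in cardiomyocytes deviated together with a correlation above 0.1. No reference was taken from libraries of different numbers. The 12 input libraries were not used. The members and the lists were chosen with earlier results of these data known. All 8 members are named, with list members called in a comparison named up to 4 each by smallest adjusted p (none in the hepatocyte founder comparison, which was not tested), and the 3 promoters most like the member with the widest range of strain means.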

Additional observations from a re-analysis of the deposited data

Results flagged for a closer look

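In germ cells 1 F1 library had a Tlr1 level of 1.48 CPM, farther from the other 3 libraries (2.00, 2.02 and 2.11 CPM) than Dixon's critical value for 4 samples allows. It was the 1 such value among 16 groups of 4 to 10 libraries or lines, and chance gives such a value in about 1 of 20 groups.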

How the results depend on the processing

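The Tlr6 difference of B6 minus D2 kept its direction and its call in germ cells under every alternative run, at log2 values of -2.66 to -2.49 and adjusted p of at most 1.34e-06. As descriptions, it ran between -1.19 and -0.89 in stem cells and between -1.42 and -1.21 in cardiomyocytes. No called member peak changed sign. With single libraries left out, the count of called member peaks between B6 and D2 in germ cells was 1 to 2 (2 without D2 replicate 2, where Tlr1 passed). It was 3 in stem cells when every library entered on its own, where Tlr12 (0.63, edgeR adjusted p = 0.0109) and Tlr2 (-0.20, edgeR adjusted p = 0.0469) passed too. That run counts B6 line 49 and D2 line 203 several times. Its libraries are thus not independent, and nothing is read from these calls. Over all peaks it gave 31493 calls, against 20566 with summed lines. Between BXD75 and BXD87 stem cells the count was 0 to 1 with single lines left out. For F1 minus the parent mean it was 0 with the filter of 50 reads and 0 to 1 with single libraries left out. The cause of these changes was not tested. With DESeq2, 2 of the pathway list were called between B6 and D2 in germ cells against 1 with edgeR, and 6 in cardiomyocytes against 2.

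The deviations of same-numbered libraries had correlations of -0.26 to 0.61 in hepatocytes and -0.73 to 0.65 in cardiomyocytes. Libraries of different numbers were not compared, so that this check cannot settle whether the number is a pairing. With the replicate block the Tlr6 difference of B6 minus D2 was -1.30 in cardiomyocytes and -2.66 in hepatocytes, and the counts of called members were 1 in cardiomyocytes for B6 minus D2 and 0 in cardiomyocytes and hepatocytes for BXD75 minus BXD87. No paired analysis was possible in germ cells and stem cells because the strains share no usable numbers. A window of 500 bases removed the Tlr12 stem cell peak, and 2000 bases added none. Depth limits Tlr1, Tlr12 in stem cells and Tlr6 in B6, whose peaks hold few reads.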
